A study of Homo sapiens with 16 samples.

Results

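MYC, MAX and their relatives were followed as a list of 10 genes: MYC, its partner MAX, the antagonists MXI1, MXD1, MXD3, MXD4 and MNT, the related partner protein gene MLX, and the repressor genes BHLHE40 and BHLHE41. They are 10 of 18417 genes that a probe set stands for alone and 10 of the 12639 genes bright enough to test. Each of the 10 had exactly 1 probe set that carries a single gene symbol, so no choice between probe sets was needed.

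The series measured total RNA of 4 human B-lineage lines (RPMI8226 and KMS-11, U266 and IM-9) on Affymetrix gene arrays. The labels call all 4 lines derived from multiple myeloma, the plasma cell cancer, although IM-9 is widely described as a B lymphoblastoid line transformed by Epstein-Barr virus. Each line is present as parental cells grown in air-level oxygen (20% O2) for 24 hours and as hypoxia-resistant cells, called HR, grown at 1% O2 for 24 hours. The 8 groups have 2 arrays each, 16 arrays in all, and the question of each comparison is how HR cells differ from the parental cells of their own line. No genetic change was made in any group, and how the HR lines were derived, and whether each is 1 clone, is not given in the sources used here. HR cells were measured only at 1% O2 and parental cells only at 20% O2, so the resistant state and the oxygen supply cannot be told apart. Separate cultures are not named in any label for the 2 arrays of a group, so p-values within a line measure only the spread between arrays, which may be technical.

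MYC is a transcription factor that binds DNA as a pair with MAX, mostly at short palindromes called E-boxes, and raises the transcription of genes for ribosome production, nucleotide synthesis and growth. The MXD proteins, MXI1 and MNT compete for MAX and for the same sites, and recruit the SIN3 and histone deacetylase (HDAC) corepressors. MLX pairs with MondoA (MLXIP) and ChREBP (MLXIPL), which respond to glucose-derived metabolites. BHLHE40 and BHLHE41, also called DEC1 and DEC2, bind E-boxes without MAX, repress transcription, take part in the circadian clock and are known as genes induced by low oxygen. In myeloma, raised MYC activity is a frequent event of progression.

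The promoter sequences of the 3 members with the broadest or largest rises in HR cells are shown because E-boxes and the core of the hypoxia response element are short enough to be read in them. Each is the stretch of 250 bases that ends just before the annotated start of the gene, from RefSeq on build GRCh38.p14. BHLHE40 lies at chr3:4979187-4979436 on the plus strand, BHLHE41 at chr12:26125038-26125287 on the minus strand and MXI1 at chr10:110207355-110207604 on the plus strand. Capitals mark every match, on either strand, to CACGTG (the E-box), to ACGTG and to GCGTG (both forms of the hypoxia response core).
BHLHE40: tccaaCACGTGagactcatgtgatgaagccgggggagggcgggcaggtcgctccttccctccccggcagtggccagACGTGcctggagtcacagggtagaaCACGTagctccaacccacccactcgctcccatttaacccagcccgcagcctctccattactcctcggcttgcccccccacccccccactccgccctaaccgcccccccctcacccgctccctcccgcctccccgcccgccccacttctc
BHLHE41: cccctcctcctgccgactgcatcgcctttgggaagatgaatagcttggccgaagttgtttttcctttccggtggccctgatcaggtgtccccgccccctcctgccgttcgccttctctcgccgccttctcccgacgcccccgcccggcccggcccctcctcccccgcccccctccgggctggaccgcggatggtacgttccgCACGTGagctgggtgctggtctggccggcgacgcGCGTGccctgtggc
MXI1: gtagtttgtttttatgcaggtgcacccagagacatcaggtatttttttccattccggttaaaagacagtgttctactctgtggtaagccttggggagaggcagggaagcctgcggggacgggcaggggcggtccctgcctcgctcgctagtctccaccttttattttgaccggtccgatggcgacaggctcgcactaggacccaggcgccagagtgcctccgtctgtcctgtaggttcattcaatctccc

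BHLHE40 held the E-box with its first base at position -245 from the start site, and 2 further ACGTG matches at -174 and -149. BHLHE41 held the E-box at -48 and a GCGTG match at -14. In the MXI1 window none of the 3 motifs was found. Of the 9 members whose promoter was searched, all except MYC, whose promoter was not used here, 5 held the E-box: MXD4 at -238, MNT at -193, MLX at -50, and both BHLHE genes. Among all 35116 promoters of the table, 6.34% held it. The shorter ACGTG occurred in 6 of the 9 members and in 18.5% of all promoters, and GCGTG in 3 of the 9 and in 32.2%. Every CACGTG contains ACGTG on both strands, so the first motif is counted within the second. The window of MAX lies at a start site inside the gene rather than at its outer end. The G and C content was 68.4% for BHLHE40, 70.4% for BHLHE41 and 55.6% for MXI1, beside a median of 58.0% over all promoters. It was 70.4% for MXD4, 78.0% for MNT and 71.2% for MLX, so all 5 members with the E-box lay above that median. Among members without the E-box it was 61.2% for MAX, 64.4% for MXD1 and 60.4% for MXD3. The shares over all promoters were not matched for base content. A match describes letters in this window and is not evidence of a bound site.

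Values are log2 intensities. The median of an array was 6.22 to 6.34, the duplicates of a group had r = 0.992 to 0.996 with each other, and 0 pairs of arrays were identical. The tested genes were those that exceeded 6.27, the median of the table, on 2 or more arrays. Of 8 plasma cell markers 6 or 7 were above that level in every group. Of 8 B cell markers all 8 were above it in IM-9 and 2 to 5 in the other lines. Of 5 myeloid markers 0 were above it in any group, of 6 T and NK cell markers 1 or 2, and of 5 stromal markers 1 or 2. In bulk RNA, fewer cells that express a gene and less RNA of it per cell cannot be told apart.

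MYC itself was high and nearly equal in HR and parental cells of RPMI8226 and KMS-11, rose from a low level in U266-HR and fell in IM-9-HR. In RPMI8226 the parental arrays read 11.58 and 11.60 and the HR arrays 11.41 and 11.51, and in KMS-11 they read 11.49 and 11.45 against 11.48 and 11.43. In U266 the parental arrays read 6.67 and 6.71 and the HR arrays 7.19 and 7.28. In IM-9 they read 10.77 and 10.77 against 10.00 and 10.01. The HR and parental arrays of U266 and of IM-9 lay well apart, those of KMS-11 overlapped, and those of RPMI8226-HR were slightly lower without overlap. HR minus parental was 0.55 ± 0.06 (SE) in U266, a rise of 1.46-fold with limma's adjusted p = 2.51e-05. In IM-9 MYC fell by 0.77 ± 0.06 on the log2 scale, 1.70-fold lower with adjusted p = 9.03e-07 in limma. The difference was -0.13 ± 0.06 in RPMI8226 (limma adjusted p = 0.12) and -0.01 ± 0.06 in KMS-11 (adjusted p = 0.917), and neither was called. With quantile normalization applied again, the RPMI8226 value was -0.18 and passed in limma with adjusted p = 0.0444.

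The 8 groups fell into a clear order for MYC. The 4 groups of RPMI8226 and KMS-11 came first, with means from 11.46 to 11.59 that do not differ between neighbours beyond their spread (the moderated 95% interval of the difference holds 0). IM-9 parental cells at 10.77, IM-9-HR at 10.00, U266-HR at 7.24 and U266 parental cells at 6.69 followed, each separated from the next. The parental range was thus 4.90, or 30.0-fold between RPMI8226 and U266. MYC in U266-HR, after its rise, was 2.77 below the next group, IM-9-HR. Across the 4 lines, the F test in limma of equal HR effects gave adjusted p = 1.01e-06 for MYC, and the effect in U266 exceeded that in IM-9 by 1.32 (95% interval 1.13 to 1.498, not adjusted over the 6 pairs of lines).

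**Figure D1:**
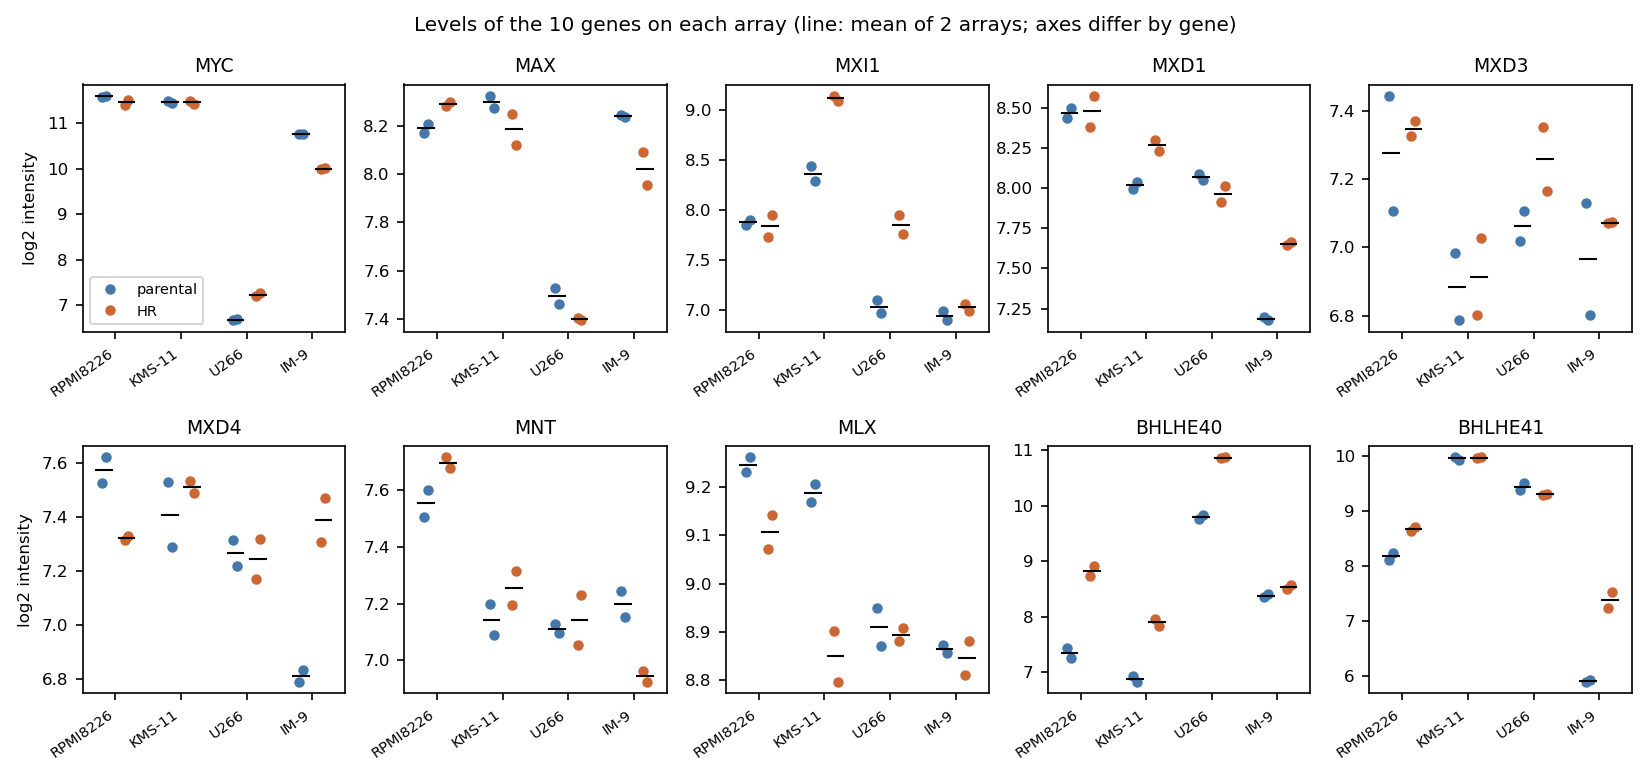
Log2 intensity (y axis, a separate scale for each gene) of the 10 genes on each of the 16 arrays, by line (x axis); blue points are parental arrays, orange points HR arrays and black lines the mean of 2 arrays. MYC is near 11.5 in RPMI8226 and KMS-11 and below 7.3 in U266, and the HR points of BHLHE40 stand above the parental points in all 4 lines.

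The paralogs MYCN and MYCL, from the list of other MAX network genes, were each high in a single line. MYCN, known as an oncogene of neuroblastoma, read 10.00 and 10.28 in KMS-11 parental cells and 10.04 and 10.36 in KMS-11-HR, and at most 7.34 on any array of another line. In RPMI8226 the MYCN arrays read 7.34 and 7.19 in parental cells and 5.92 and 5.94 in HR cells. MYCN thus fell by 1.33 ± 0.12 on the log2 scale there (limma adjusted p = 4.68e-06), to a level under the filter level of 6.27, where a fold change may be understated. It also fell by 0.35 ± 0.12 in IM-9 (limma adjusted p = 0.0382), with both groups under that level, and this call was lost without any 1 of the 4 IM-9 arrays.

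MYCL, the L-MYC gene, was high in U266, the line with little MYC. Its U266 arrays read 9.42 and 8.83 in parental cells and 8.58 and 8.91 in HR cells, while the means of the other 6 groups lay between 5.78 and 6.48. The U266 arrays of the 2 conditions overlapped, and the difference was -0.38 ± 0.16 (limma adjusted p = 0.135). It rested on the parental arrays, at -0.67 without parental array 2 (adjusted p = 0.01 in limma) and -0.09 without parental array 1 (adjusted p = 0.789). MGA, a large MAX-binding protein gene, was tested and not called in any line, with differences from -0.04 to 0.11. Of the 5 genes of the list 4 were tested, and MYCN was the member called, in RPMI8226 and IM-9.

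**Figure D2:**
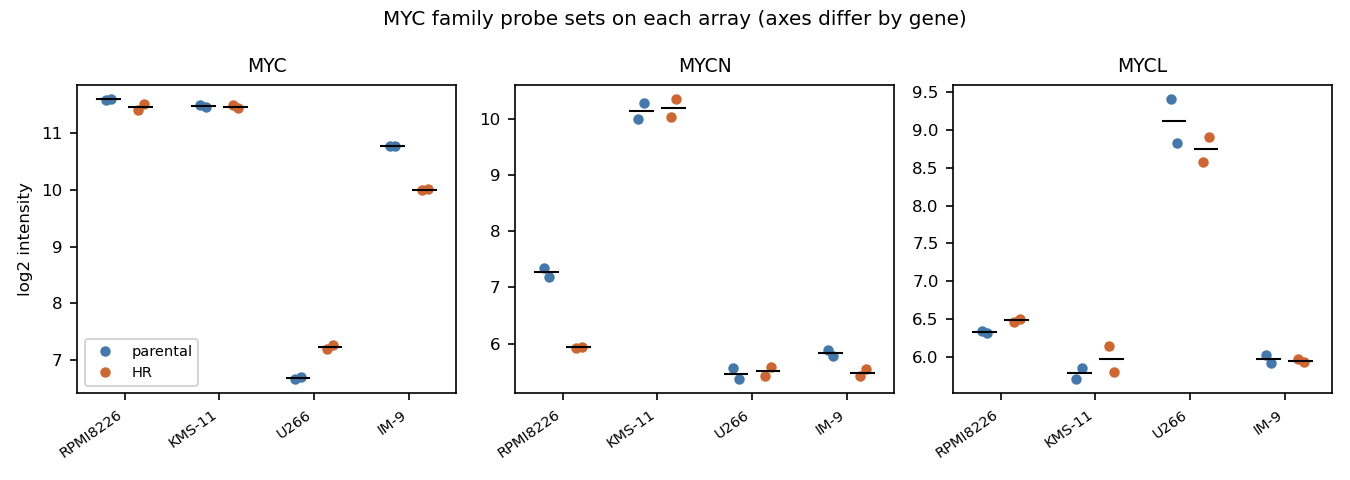
Log2 intensity (y axis, a separate scale for each gene) of MYC, MYCN and MYCL on each array, by line (x axis); blue points are parental arrays, orange points HR arrays and black lines the mean of 2 arrays. MYCN is near 10 in KMS-11 alone, MYCL near 9 in U266 alone, and MYC is lowest in U266.

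MAX, the shared partner, varied little with condition but was low in U266. Parental arrays of RPMI8226 read 8.17 and 8.21, of KMS-11 8.32 and 8.27, of U266 7.53 and 7.46, and of IM-9 8.24 and 8.23. The HR arrays read 8.28 and 8.30, 8.25 and 8.12, 7.40 and 7.39, and 8.09 and 7.95 in the same order. U266 thus lay below every array of the other lines in both conditions, with a parental range of 0.80 or 1.75-fold. MAX fell by 0.22 ± 0.07 on the log2 scale in IM-9-HR (limma adjusted p = 0.0207), the line in which MYC fell too. It was not called in RPMI8226 (0.10 ± 0.07), KMS-11 (-0.11 ± 0.07) or U266 (-0.10 ± 0.07). The IM-9 call did not hold without IM-9 parental array 1 (adjusted p = 0.0712), parental array 2 (0.0536) or HR array 2 (0.186), all in limma. The F test of equal HR effects missed the threshold for MAX (limma adjusted p = 0.0624), which does not show that the lines responded alike.

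MXI1, which encodes a MAX partner that opposes MYC, rose in KMS-11-HR and U266-HR. In KMS-11 the parental arrays read 8.44 and 8.28 and the HR arrays 9.14 and 9.09. In U266 they read 7.09 and 6.97 against 7.95 and 7.76. The HR arrays of both lines lay above all their parental arrays. The rise was 0.76 ± 0.09 in KMS-11 (1.69-fold, limma adjusted p = 0.00035) and 0.82 ± 0.09 in U266 (1.76-fold, limma adjusted p = 2.93e-05).

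RPMI8226 and IM-9 showed no such change of MXI1. The RPMI8226 arrays read 7.85 and 7.90 in parental and 7.73 and 7.95 in HR cells, and the IM-9 arrays 6.99 and 6.89 against 7.06 and 6.99. Parental and HR arrays overlapped in RPMI8226 and met at 6.99 in IM-9, with differences of -0.04 ± 0.09 and 0.08 ± 0.09 (limma adjusted p = 0.805 and 0.5). The RPMI8226 difference changed sign with the array left out, from -0.15 to 0.07. The F test of equal HR effects gave limma adjusted p = 0.000191. The intervals of the difference between either responding line and either other line left out 0, and that between KMS-11 and U266 was -0.34 to 0.21. KMS-11-HR had the highest level of MXI1, 9.12, separated from KMS-11 parental cells at 8.36, while the groups of U266 parental, IM-9-HR and IM-9 parental cells were not separated at 7.03, 7.02 and 6.94.

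MXD1, another antagonist, known as a gene of terminal differentiation, rose in IM-9-HR and, near the threshold, in KMS-11-HR. The IM-9 arrays read 7.20 and 7.18 in parental and 7.65 and 7.66 in HR cells. Those of KMS-11 read 7.998 and 8.04 against 8.30 and 8.23. Neither line had overlapping arrays. The rise was 0.47 ± 0.07 in IM-9 (1.38-fold, limma adjusted p = 0.000243) and 0.25 ± 0.07 in KMS-11 (1.19-fold, limma adjusted p = 0.0496). In RPMI8226 the difference was 0.01 ± 0.07 and in U266 -0.10 ± 0.07, neither called. Every array left out of KMS-11 ended that call (limma adjusted p from 0.123 to 0.251), as did the replicate block (adjusted p = 0.0638). The F test of equal effects gave limma adjusted p = 0.00203 for MXD1, and IM-9-HR remained below every other line, at 7.66 against 7.96 in U266-HR.

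MXD4, a MAX partner of the same family, rose in IM-9-HR. Its IM-9 arrays read 6.79 and 6.84 in parental and 7.31 and 7.47 in HR cells, without overlap. That rise was 0.58 ± 0.09 (1.49-fold, limma adjusted p = 0.000257). It brought MXD4 from a parental level below all other groups to 7.39, among the other groups at 7.24 to 7.57, whose neighbours were not separated. In RPMI8226 the arrays read 7.52 and 7.62 in parental and 7.32 and 7.33 in HR cells, a difference of -0.25 ± 0.09 that narrowly missed the threshold (limma adjusted p = 0.0524). It passed with the stricter filter (adjusted p = 0.0445) and with quantile normalization again (adjusted p = 0.0274), both in limma. The differences in KMS-11 and U266 were 0.10 ± 0.09 and -0.02 ± 0.09. The F test of equal effects for MXD4 gave limma adjusted p = 0.000976.

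MNT, the widely expressed antagonist of MYC, was the antagonist that fell in IM-9-HR. The IM-9 arrays read 7.24 and 7.15 in parental and 6.96 and 6.92 in HR cells, without overlap. The fall was -0.25 ± 0.08 (1.19-fold lower, limma adjusted p = 0.0186). It was lost without IM-9 parental array 1 (adjusted p = 0.107), HR array 1 (0.0573) or HR array 2 (0.0958), all in limma. In the other lines MNT differed by 0.14 ± 0.08, 0.11 ± 0.08 and 0.03 ± 0.08 in RPMI8226, KMS-11 and U266, none called, and its level was highest in RPMI8226 (7.55 parental, 7.70 HR). The F test of equal effects gave limma adjusted p = 0.0265.

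MXD3, an antagonist linked to proliferating cells, was not called in any line. Its 16 arrays ran from 6.79 to 7.44 with a median of 7.09, and the differences were 0.07, 0.03, 0.20 and 0.11 in the order RPMI8226, KMS-11, U266, IM-9 (± 0.13 each). The sign turned with the parental array left out, from 0.24 to -0.10 in RPMI8226 and from 0.27 to -0.06 in IM-9. Duplicate arrays of MXD3 differed by as much as 7.44 and 7.11 in RPMI8226 parental cells, so its spread was the widest of the 10. The order of its 8 levels had no pair of separated neighbours. It was also the member whose parental level did not pass the F test between lines (limma adjusted p = 0.0525).

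**Figure D3:**
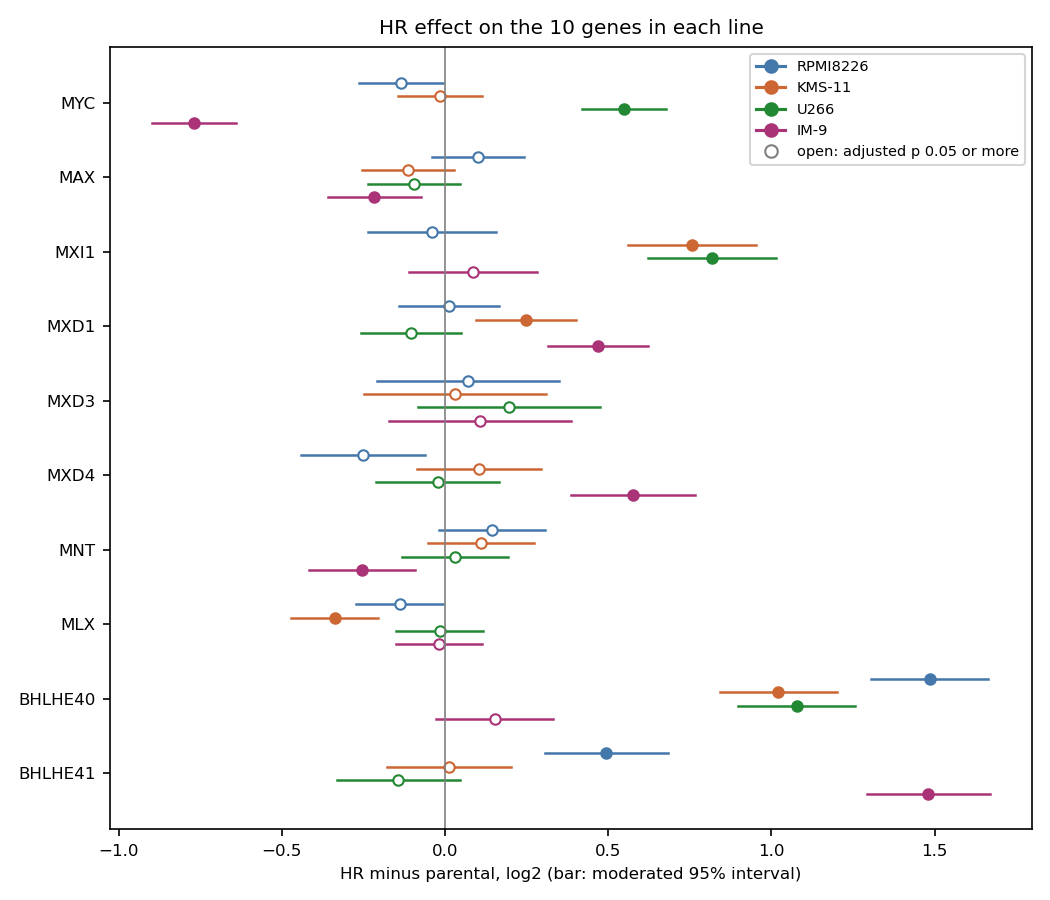
HR minus parental on the log2 scale (x axis) for each of the 10 genes (y axis) in each line (colours); bars are moderated 95% intervals, filled points have a limma adjusted p under 0.05 and open points do not. BHLHE40 is to the right in RPMI8226, KMS-11 and U266, BHLHE41 in IM-9 and RPMI8226, and MYC lies on opposite sides of 0 in U266 and IM-9.

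MLX, the partner of the glucose-responsive factors, fell in KMS-11-HR. The KMS-11 arrays read 9.17 and 9.21 in parental and 8.90 and 8.80 in HR cells, without overlap. MLX fell by 0.34 ± 0.06 on the log2 scale (1.26-fold lower, limma adjusted p = 0.005). The call was lost without KMS-11 parental array 2 (adjusted p = 0.053) or HR array 2 (adjusted p = 0.0677) in limma. The differences of MLX were -0.14 ± 0.06 in RPMI8226, -0.02 ± 0.06 in U266 and -0.02 ± 0.06 in IM-9, lower in 4 of 4 lines but called in 1. Its effects differed between lines by the F test (limma adjusted p = 0.0232).

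TXNIP, a thioredoxin-binding protein gene and the best known target of MondoA with MLX, rose in all 4 lines. The TXNIP arrays read 11.21 and 11.04 in RPMI8226 parental and 11.68 and 11.71 in HR cells, 7.88 and 7.92 against 9.45 and 9.53 in KMS-11, 8.12 and 8.06 against 10.71 and 10.72 in U266, and 9.84 and 9.87 against 10.56 and 10.45 in IM-9. The rises were 0.58, 1.59, 2.62 and 0.65 (± 0.07 each), with limma adjusted p of at most 4.74e-05. KLF10, a further target, rose in KMS-11 (0.25 ± 0.06) and U266 (0.20 ± 0.06) in limma (adjusted p = 0.0156 and 0.0239), calls that did not hold without any 1 array of the line. ARRDC4, the last of the 3 listed targets, did not pass the filter. MLXIP, the MondoA gene, was not called in any line (0.06, -0.24, 0.15 and 0.06, ± 0.08 each; in KMS-11 limma adjusted p = 0.0758). MLXIPL did not pass the filter, with arrays from 5.38 to 6.37.

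**Figure D4:**
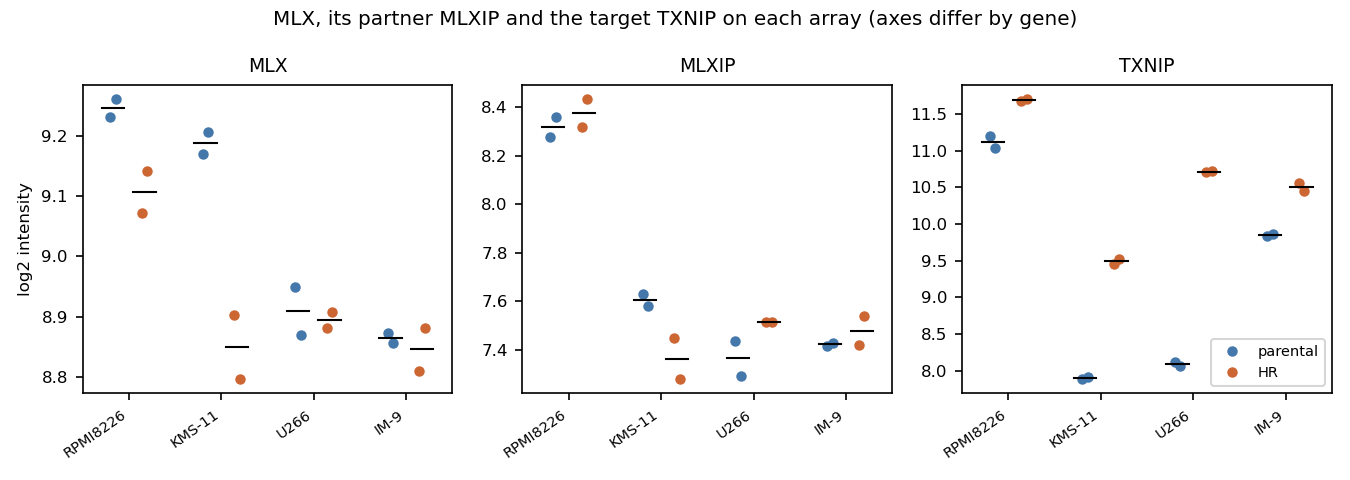
Log2 intensity (y axis, a separate scale for each gene) of MLX, its partner MLXIP and the target TXNIP on each array, by line (x axis); blue points are parental arrays, orange points HR arrays and black lines the mean of 2 arrays. The HR points of TXNIP lie above the parental points in all 4 lines, while those of MLX lie clearly lower in KMS-11.

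BHLHE40 rose in HR cells of RPMI8226, KMS-11 and U266, by 2.03-fold to 2.80-fold. In RPMI8226 the parental arrays read 7.44 and 7.25 and the HR arrays 8.73 and 8.92, and in KMS-11 they read 6.93 and 6.83 against 7.96 and 7.84. In U266 they read 9.76 and 9.82 against 10.86 and 10.87. The HR arrays lay above the parental arrays by far more than duplicates differed. The rises were 1.49 ± 0.08, 1.02 ± 0.08 and 1.08 ± 0.08 in the same order (limma adjusted p = 5.27e-08, 1.17e-05 and 9.7e-07), and they were called in each alternative run.

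In IM-9 BHLHE40 read 8.35 and 8.42 in parental and 8.50 and 8.57 in HR cells. These arrays did not overlap, but the difference of 0.15 ± 0.08 was not called (limma adjusted p = 0.174). The effect in IM-9 was smaller than in each other line, by 1.33 (95% interval 1.08 to 1.59) against RPMI8226, by 0.87 (0.62 to 1.12) against KMS-11 and by 0.93 (0.67 to 1.18) against U266. The F test of equal effects gave limma adjusted p = 1.25e-05. By level, U266-HR (10.87) and U266 parental cells (9.79) stood above all other groups, then came RPMI8226-HR (8.83), and the neighbours that were not separated were IM-9-HR and IM-9 parental cells. The parental range was 2.91 or 7.53-fold, from KMS-11 at 6.88 to U266.

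BHLHE41, the paralog, rose in IM-9-HR and RPMI8226-HR. In IM-9 the parental arrays read 5.89 and 5.92, under the filter level, and the HR arrays 7.23 and 7.53. In RPMI8226 they read 8.11 and 8.25 against 8.64 and 8.70. The arrays of neither line overlapped. The rise was 1.48 ± 0.09 in IM-9 (2.79-fold, limma adjusted p = 9.7e-08), which may be understated because of the dim parental level, and 0.49 ± 0.09 in RPMI8226 (1.41-fold, limma adjusted p = 0.00105).

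KMS-11 and U266, with the highest levels of BHLHE41, had no called change in it. KMS-11 read 9.98 and 9.94 in parental and 9.97 and 9.99 in HR cells, and U266 read 9.40 and 9.51 against 9.30 and 9.32. Arrays overlapped in KMS-11 and lay slightly lower in U266-HR, with differences of 0.01 ± 0.09 and -0.14 ± 0.09 (limma adjusted p = 0.954 and 0.304). The effect in IM-9 exceeded that in U266 by 1.62, in KMS-11 by 1.47 and in RPMI8226 by 0.99, and all 3 intervals left out 0. The F test gave limma adjusted p = 1.96e-06. The parental range of BHLHE41 was 4.06 or 16.7-fold, from IM-9 to KMS-11, and IM-9-HR at 7.38 was still below RPMI8226 parental cells at 8.18. The 2 BHLHE genes thus rose together in RPMI8226, BHLHE40 without BHLHE41 in KMS-11 and U266, and BHLHE41 without a called rise of BHLHE40 in IM-9.

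Counted over the 10 genes, 2 rose and 0 fell in RPMI8226 by limma, where 10.7% of all genes tested rose and 15.3% fell at the adjusted threshold. At an unadjusted p under 0.05 in limma, 3 were lower, MYC, MXD4 and MLX. No share of all genes at that threshold stands beside this count. In KMS-11 3 rose and 1 fell, beside 2.44% and 5.83% of all genes. In U266 3 rose and 0 fell, beside 9.68% and 8.42%. At an unadjusted p under 0.05 in limma, also 0 were lower there, again without a share of all genes at that threshold. In IM-9 3 rose and 3 fell, beside 14.4% and 21.3%. The median difference of the 10 was 0.04, 0.07, 0.01 and 0.10 in the order RPMI8226, KMS-11, U266, IM-9, against -0.01, -0.02, -0.01 and -0.06 over all genes tested. These counts and medians describe the 10 genes and are no test of the set.

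Over the lines as units (n = 4), limma called 0 of the 10 genes and 0.0% of all genes. At an unadjusted p under 0.05 it had 1 member, BHLHE40, and 793 of the 12639 genes (6.27%). BHLHE40 was 0.93 ± 0.21 higher in HR cells (adjusted p = 0.764 in limma), higher in 4 of 4 lines, and 1.19 without IM-9. MXI1 was 0.41 ± 0.17 higher (3 of 4 lines) and BHLHE41 0.46 ± 0.27 higher (3 of 4 lines, 0.12 without IM-9). MYC was -0.09 ± 0.20, lower in 3 of 4 lines, and its sign turned with the line left out: -0.31 without U266 and 0.13 without IM-9.

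The HR effect differed between lines for 8 of the 10 genes in limma's F test, all but MAX and MXD3, where 45.4% of all genes passed. Parental levels differed between lines for 9 of 10, all but MXD3, where 94.3% of all genes passed, so this count is near the background. Among parental cells the ranges of MYC (4.90), BHLHE41 (4.06) and BHLHE40 (2.91) were wide, those of MXI1 (1.42) and MXD1 (1.28) intermediate, and those of MAX (0.80), MXD4 (0.76), MNT (0.44), MXD3 (0.39) and MLX (0.38) narrow, all on the log2 scale. Among parental cells U266 was lowest for MYC and MAX and highest for BHLHE40, and IM-9 was lowest for MXD1, MXD4 and BHLHE41, each beyond the 95% interval of the difference from the next line. The lowest means of MXI1 and MLX (IM-9) and of MNT (U266) were not separated from the next line.

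Genes that MYC is known to induce, such as those for ribosome assembly and nucleotide synthesis, fell above the share of all genes in both IM-9-HR and KMS-11-HR. Of 33 listed, 28 were tested. In IM-9 18 fell and 1, LDHA, rose, with a median of -0.34 against -0.06 over all genes (background 21.3% fallen). In KMS-11, where MYC did not change by more than its spread, 10 fell and 1 rose with a median of -0.20 against -0.02 (background 5.83% fallen). In U266, where MYC rose, 4 rose and 1 fell (median 0.03; background 9.68% and 8.42%), and in RPMI8226 2 rose and 3 fell (median -0.03; background 10.7% and 15.3%), so that the RPMI8226 counts were near the background. The KMS-11 count of falls was 8 with quantile normalization again, 8 with only its own arrays and 16 with a trend and robust fit. In IM-9 the same settings gave 19, 15 and 20 falls. Fewer than in the main fit were called in either line without any 1 of its arrays, in fits that leave 1 array in a group. A much larger part of the calls was lost in KMS-11 than in IM-9. At an unadjusted p under 0.05 in limma, 17 were lower in KMS-11 and 21 in IM-9. Shares of all genes in these settings and at that threshold are not given.

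Single MYC targets moved in different directions. TFRC, the transferrin receptor, fell by 1.17 ± 0.06 in RPMI8226, fell by 0.71 ± 0.06 in U266 and fell by 0.85 ± 0.06 in IM-9 on the log2 scale, and was -0.01 ± 0.06 in KMS-11. LDHA, the lactate dehydrogenase gene that low oxygen also induces, rose in each line, by 0.37, 0.39, 0.52 and 0.17 in the order RPMI8226, KMS-11, U266, IM-9 (± 0.06 each). Its IM-9 rise (limma adjusted p = 0.0356) was lost without parental array 1 or either HR array (adjusted p from 0.114 to 0.176) and with quantile normalization again (adjusted p = 0.104). DKC1, which modifies ribosomal RNA, fell in RPMI8226 (-0.26), KMS-11 (-0.29) and IM-9 (-0.21, ± 0.06 each). MRTO4, a ribosome assembly factor gene, fell in KMS-11 (-0.34 ± 0.08) and in IM-9 (-0.58 ± 0.08). The KMS-11 calls of DKC1 and MRTO4 and the DKC1 calls in RPMI8226 and IM-9 were lost without at least 1 array of the line.

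**Figure D5:**
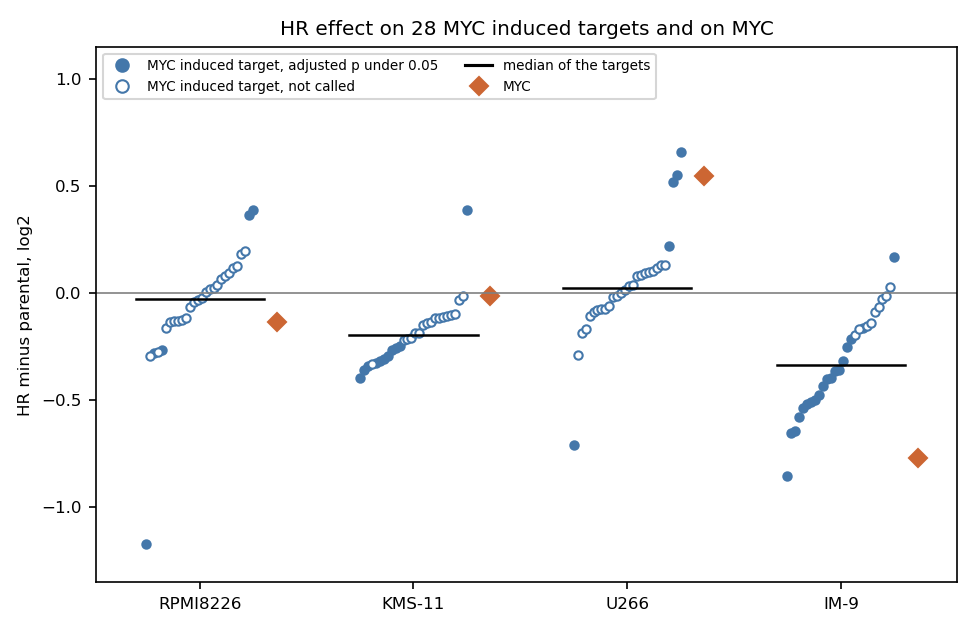
HR minus parental on the log2 scale (y axis) of the 28 tested MYC induced targets, sorted within each line (x axis); filled circles have a limma adjusted p under 0.05, black lines are medians and orange diamonds are MYC itself. The median lies at -0.34 in IM-9, where MYC is at -0.77, and at -0.20 in KMS-11, where MYC is at -0.01.

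Of 8 listed genes that MYC is known to repress, 7 were tested. In IM-9 3 rose and 0 fell, where 14.4% of all genes rose and 21.3% fell. In KMS-11 1 rose and 0 fell, beside 2.44% and 5.83%, and 1 rose and 2 fell in RPMI8226 (10.7% and 15.3%) as in U266 (9.68% and 8.42%). At an unadjusted p under 0.05 in limma, 1 was lower in KMS-11 and 1 in IM-9, with no share of all genes at that threshold beside them. NDRG1, which is a gene of the low oxygen response as well, rose in all 4 lines, by 1.26 (RPMI8226) to 3.13 (IM-9, ± 0.11). CDKN1B, the cell cycle inhibitor p27, rose in IM-9 (0.42 ± 0.07) and fell in RPMI8226 (-0.32 ± 0.07). CDKN1A, the inhibitor p21, fell in RPMI8226 (-0.52 ± 0.13), a call lost without parental array 2 or HR array 1, and was -0.35 ± 0.13 in IM-9 (limma adjusted p = 0.0534). In 6 of the alternatives the IM-9 difference passed as a fall (limma adjusted p from 0.0249 to 0.0483). DDIT3, a stress transcription factor gene, fell in U266 (-0.86 ± 0.06) and rose in IM-9 (0.36 ± 0.06), where both levels were under 6.27.

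Of 16 tested genes for MYC cofactors and for the turnover of MYC, 2 rose and 3 fell in RPMI8226, beside 10.7% and 15.3% of all genes, which is near the background. In KMS-11 1 rose and 1 fell, beside 2.44% and 5.83%, and in U266 5 rose and 0 fell in limma, beside 9.68% and 8.42%. At an unadjusted p under 0.05 in limma, also 0 were lower in U266, with no share of all genes at that threshold beside this. In IM-9 2 rose and 7 fell, beside 14.4% and 21.3%. RUVBL1, a helicase cofactor of MYC, fell in RPMI8226 (-0.56 ± 0.06) and IM-9 (-0.42 ± 0.06). AURKA, a mitotic kinase that stabilises MYC family proteins, fell in RPMI8226 (-0.77 ± 0.09) and IM-9 (-0.46 ± 0.09) and rose in U266 (0.39 ± 0.09), a rise lost without U266 parental array 2 or HR array 2. PIM1, a kinase that cooperates with MYC, rose in KMS-11 (0.55 ± 0.08) and U266 (0.49 ± 0.08) and fell in RPMI8226 (-0.37 ± 0.08), a fall lost without parental array 2 or HR array 1. PIM2, its relative, rose in U266 (0.36 ± 0.10) and IM-9 (0.27 ± 0.10), both lost without any 1 array of the line. Without any 1 of its arrays, U266 had fewer rises in this list than 5. The share of all genes in those fits, which leave 1 array in a group, is not given.

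The corepressor genes used by the antagonists fell in 5 of 10 cases in RPMI8226, with 1 rise, where 15.3% of all genes fell. In KMS-11 limma called 0 of the 10, where 2.44% of all genes rose and 5.83% fell at the adjusted threshold. At an unadjusted p under 0.05 in limma, 1 was higher, without a share of all genes at that threshold. In U266 1 rose and 1 fell, beside 9.68% and 8.42%, and in IM-9 4 fell, beside 21.3%. HDAC1, a histone deacetylase gene, fell in RPMI8226 (-0.69 ± 0.06). RBBP4, a histone-binding subunit, fell in RPMI8226 (-0.28 ± 0.06) and IM-9 (-0.22 ± 0.06), and HDAC3 in the same lines (-0.21 and -0.20, ± 0.06 each). The RBBP4 and HDAC3 calls were lost in both lines with only the arrays of the line. Without parental array 2 or HR array 1 of the line, RBBP4 was lost in IM-9 and HDAC3 in RPMI8226. The IM-9 call of HDAC3 was lost without any 1 array of the line. SUDS3, a SIN3 subunit, fell in U266 (-0.30 ± 0.07), a call lost without parental array 1 or HR array 1 (limma adjusted p = 0.0785 and 0.108). With only the arrays of the line, the count fallen was 1 in RPMI8226 and 1 in IM-9. Without 1 array it was lower in IM-9 and the same or lower in RPMI8226. The share of all genes in these settings is not given.

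Genes of the circadian clock, in which BHLHE40 and BHLHE41 take part, were called near the background of all genes in RPMI8226, U266 and IM-9. They were not called in KMS-11, the line with the smallest share of all genes called. Of 15 tested, 2 rose and 1 fell in RPMI8226, beside 10.7% and 15.3% of all genes. In U266 2 rose and 0 fell, beside 9.68% and 8.42%. At an unadjusted p under 0.05 in limma, 4 were higher and 0 lower there, with no share of all genes at that threshold beside them. In IM-9 4 rose and 2 fell, beside 14.4% and 21.3%. RORA, a nuclear receptor of the clock, rose by 1.40 ± 0.05 in RPMI8226. PER2, a core repressor of the clock, rose in U266 and IM-9 (0.34 ± 0.08 each). Both PER2 calls were lost without parental array 1 or HR array 2 of the line, and that in IM-9 also with only the IM-9 arrays. NFIL3 rose in U266 and IM-9 too (0.52 and 0.59, ± 0.16 each), with both IM-9 levels under 6.27. The U266 call of NFIL3 was lost with no filter, with quantile normalization again and without parental array 1 or either HR array. Its IM-9 call was lost without parental array 1 or HR array 2. CRY1 was called lower in IM-9 (-0.26 ± 0.09, limma adjusted p = 0.0454). The CRY1 call was lost without any 1 IM-9 array (limma adjusted p from 0.0571 to 0.248) and with arrays shifted to one median, no filter, array weights or only the IM-9 arrays. All calls of risen clock genes in IM-9, and all in U266, were lost without at least 1 array of the line. The share of all genes in those fits, which leave 1 array in a group, is not given. In KMS-11 limma called 0 of the 15, where 2.44% and 5.83% of all genes rose and fell at the adjusted threshold. At an unadjusted p under 0.05 in limma, 2 were higher, and the share of all genes at that threshold was not counted.

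Known targets of the hypoxia-inducible factor HIF are given beside these values, because BHLHE40 and BHLHE41 are counted among the genes low oxygen induces. Of 10 tested, 10 rose in RPMI8226 as in U266, 9 in KMS-11 and 8 in IM-9 (beside 10.7%, 9.68%, 2.44% and 14.4% of all genes), with medians of 1.01 in RPMI8226, 1.49 in U266, 1.09 in KMS-11 and 0.92 in IM-9. P4HA1, a collagen prolyl hydroxylase subunit, and SLC2A1, the glucose transporter GLUT1, rose most in KMS-11 (2.01 ± 0.08) and U266 (2.23 ± 0.12) respectively, and BNIP3, a mitophagy receptor gene, rose least in IM-9 (1.23 ± 0.07). P4HA1 and SLC2A1 also rose least in IM-9 (0.85 ± 0.08 and 0.58 ± 0.12). NDRG1, which is in this list too, rose most in IM-9 (3.13 ± 0.11), beside 2.23 in U266, 1.58 in KMS-11 and 1.26 in RPMI8226. ANKRD37, another listed target, fell by 0.65 ± 0.07 on the log2 scale in IM-9. Whether the level of HIF activity bears on BHLHE40, BHLHE41 or MXI1 was not tested.

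By the Pearson correlation of the 8 group means, a description with points that share lines and arrays, the genes most like MYC were THNSL1 (r = 0.998), IGF2BP3 (0.995) and ASPHD2 (0.990). For MAX they were RAD52 (0.994), SIMC1 and PLD6, and for MXI1 MGAT3 (0.977), ZNF740 and PIM1 (0.955). For MXD1 they were PPP1R12B (0.975), TMEM59 and ZC3H6, for MXD3 NDC80 (0.993), PPME1 and PCDHA1, and for MXD4 CTNS (0.952), SNORA60 and TMEM222. For MNT they were RASSF7 (0.991), MIB2 and ABHD15, and for MLX ZNF16 (0.950), DCXR and GNG12. BHLHE40 was most like FABP6 (0.972), NDRG4 and TUBA3C, and BHLHE41 most like SUCO (0.988), SUPT3H and CDK14. No member was among the most alike genes of another member.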

How the data were processed

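Log2 intensities of 33297 probe sets were deposited by the authors, made with Affymetrix Expression Console 1.3.0 per the submitters' processing notes; background correction and normalization are not given in the sources used here, and detection calls are absent. Gene names came from the platform table of the Human Gene 1.0 ST array, whose identifiers were all present in the file, although the series describes the 2.0 version: 19460 probe sets carried 1 symbol, 1754 several, and 12083 were not in that table. RefSeq gave current symbols for 19429. Where several probe sets stood for a gene, the brightest on average was used.

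Tests were 2-sided and used limma 3.58.1 (lmFit, eBayes) under R 4.3.3 (Benjamini-Hochberg over 12639 genes, threshold 0.05). For within-line effects a cell-means model of 8 groups over 16 arrays gave each gene a common spread, and ± is the standard error of that fit. For the effect across lines the 8 group means entered a model with the line as block. F tests compared the 4 HR effects and the 4 parental levels. Shares of all genes within a line are at an adjusted p under 0.05 in limma. No such share was counted at an unadjusted p. Scripts were tested on simulated data. For arrays, their number limits the precision: 2 per group.

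The members and all lists were chosen with earlier results of these data known. All 10 members are named; from each list up to 4 genes called in 1 direction in the most lines, lists of 5 or fewer whole, and for each member the 3 genes most correlated with it. LDHA's and ANKRD37's exceptions to their lists were named after their values were seen. Alternatives were quantile normalization again, a shift to one median, no filter and a stricter one (at least 8 arrays), the mean of probe sets, trend and robust moderation, array weights, the array number as a replicate block, only the arrays of a line, and leaving out each array or line.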

Additional observations from a re-analysis of the deposited data

Results flagged for a closer look

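For 8 of the 10 genes the HR effect differed between the 4 lines in limma's F test, where 45.4% of all genes passed. The adjusted p was 1.01e-06 for MYC, which rose in U266 and fell in IM-9. It was 1.96e-06 for BHLHE41, with its largest rise in IM-9, and 1.25e-05 for BHLHE40, with its largest rise in RPMI8226. MXI1 had 0.000191, with rises in KMS-11 and U266. MXD4 had 0.000976 and MXD1 0.00203, both with their largest rise in IM-9. MLX had 0.0232, with its fall in KMS-11, and MNT 0.0265, with its fall in IM-9. Groups of 2 arrays are too small to test a single array as an outlier.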

How the results depend on the processing

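Of the 40 values of a member in a line, 15 were called, and 11 of these were called in all 13 alternative settings of their line. The mean of probe sets, counted among these settings, left the values of the members unchanged, because each had 1 probe set. The 4 calls that were lost in some setting were MAX and MNT in IM-9 and MXD1 and MLX in KMS-11. Among values not called, 2 passed in some setting, MYC and MXD4 in RPMI8226, so that 4 members were called in RPMI8226 with quantile normalization again and 3 with the stricter filter, against 2. Without any 1 array of the line, in fits that leave 1 array in a group, fewer members were called in KMS-11 than 4 and in IM-9 than 6. The share of all genes is not given for any of the alternative settings, so these counts have no background beside them. In U266 the count was 3 in every setting. Members whose effect differed between lines numbered 6 to 8, and those whose parental level differed 9 to 10. With the array number as a replicate block, 1 member, BHLHE40, passed across lines (adjusted p = 0.0277 in limma), against 0; that fit counts arrays of a line as separate units. The numbers were not taken to pair arrays, because deviations of equal numbers correlated at 0.20, 0.07, -0.05 and 0.11 in the order RPMI8226, KMS-11, U266, IM-9. The replicate block left 6 members with an effect that differed between lines, against 8. The causes were not tested. The main limits are 2 arrays a group, oxygen and resistance that cannot be told apart, 1 probe set per member and levels near background for BHLHE41 in IM-9.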
